A study of Homo sapiens with 18 samples.

Results

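The 47 genes described here encode the receptors and inner plaque proteins of cell-matrix adhesion, namely 20 integrin subunits and 27 tensins and other adaptors. They were chosen by symbol from the 58336 gene identifiers of the count tables, and all 47 were found in each of the 3 tables. The integrin subunits comprise 4 alpha subunits that bind collagen, 3 that bind laminin, 3 that bind ligands with an Arg-Gly-Asp (RGD) motif, alpha4 and alpha9, and 8 beta subunits. The adaptors comprise 4 tensins, 4 talins and kindlins, 5 proteins of the ILK, PINCH and parvin complex, 6 kinases and signalling scaffolds, and 8 actin linkers and zyxin family proteins.

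An integrin is a pair of an alpha and a beta subunit that spans the plasma membrane, binds collagen, laminin, fibronectin or vitronectin outside the cell, and couples to actin inside it. Talin and kindlin bind the beta subunit tail and switch the receptor on. Vinculin, alpha-actinin, filamin and zyxin tie the complex to actin filaments, while paxillin, FAK and SRC carry signals from it. Ewing sarcoma, which arises in bone or soft tissue, is driven by a fusion of EWSR1 to an ETS transcription factor gene, most often FLI1, and the fusion protein binds DNA at GGAA motifs. Ewing sarcoma cells are known for small round shape and weak spreading on matrix.

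The study sequenced RNA of TC-32, TC-71 and A673, which are established Ewing sarcoma cell lines with the EWSR1::FLI1 fusion. Each line was reverse transfected with 20 nM of a negative control small interfering RNA (siNeg) or of one against FLI1 (siFLI1), which reaches the fusion transcript as well as any unfused FLI1. This gave 6 groups of 3 libraries, and the question was how the adhesion genes differ between siFLI1 and siNeg within each line. Columns carry 48 h in their names for TC-32 and TC-71 and no time for A673, and TC-32 and TC-71 grew in RPMI medium but A673 in DMEM. Each line stands for 1 tumour, and nothing in the labels says that replicates came from separate cultures, so p-values measure only the spread between these libraries, which may be technical.

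Library totals ranged in TC-32 from 24102487 to 33669271 counts, in TC-71 from 19685354 to 37234528 counts and in A673 from 114564479 to 120993595 counts, so low genes were measured most precisely in A673. FLI1 was at 45.2 ± 2.46 CPM (read counts scaled to a common library total, with TMM factors, mean ± SD, n = 3 per group) in TC-32 siNeg and at 22.1 ± 0.465 CPM in siFLI1. It stood at 50.9 ± 2.61 and 18.3 ± 1.43 CPM in TC-71 and at 76.1 ± 0.762 and 17.99 ± 0.2802 CPM in A673, with log2 fold changes of -1.03 (SE 0.064, edgeR adjusted p = 1.64e-13), -1.47 (SE 0.069, edgeR adjusted p = 8.88e-18) and -2.08 (SE 0.039, edgeR adjusted p = 3.98e-15), so the target was lower in siFLI1 throughout. The lowest correlation between replicates was 0.995, and no library stood apart from its group. Of 7 Ewing sarcoma marker genes, those tested fell in every line (7 in TC-32, 6 in TC-71, 7 in A673). Of all tested genes, 40.1%, 35.0% and 35.0% fell. In TC-71 the marker CD99 had 0 counts in every library. The TC-71 table was made with another counter than those of TC-32 and A673, per the table names. Whether the lack of CD99 reads reflects its level or the counting was not tested.

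Most integrin and adhesion genes were higher after siFLI1 in every line. In TC-32, 35 of 46 tested members rose and 5 fell at a Benjamini-Hochberg adjusted p under 0.05 (edgeR quasi-likelihood test), where 41.3% of all tested genes rose and 40.1% fell. Of 42 members tested in TC-71, 33 rose and 8 fell, beside 36.8% and 35.0% of all tested genes. A673 had 38 of 44 higher and 3 lower, beside 36.0% and 35.0%. Tested members had a median log2 fold change of 1.12 in TC-32 (all tested genes 0.022), of 1.47 in TC-71 (all genes 0.018) and of 1.26 in A673 (all genes -0.00056). Members not tested for low counts were ITGB6 in TC-32, ITGA8, ITGB6, ITGB8, TNS3 and TGFB1I1 in TC-71, and ITGB6, ITGB7 and TNS4 in A673. A further 6, 5 and 4 members passed the low-count filter only through their siFLI1 libraries, and 1 (TNS4 in TC-71) only through siNeg. These could be tested only because that group was higher, so their direction was set by the filter. Below they are given with no p. With no low-count filter, all 16 of these values kept their direction and their call. Of members that passed through both groups, 29 of 40 rose and 5 fell in TC-32 (median 0.79), 28 of 36 rose and 7 fell in TC-71 (median 1.21), and 34 of 40 rose and 3 fell in A673 (median 1.22).

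Of the 40 members tested in all 3 lines, 26 rose in each of them and 1 fell in each, where 19.0% of the 14233 genes tested in all lines rose and 18.8% fell throughout. The 26 were 9 integrin subunits and 17 adaptors, and ITGB2 was the 1 that fell. ITGB3, ITGA11, NEDD9 and FLNC, which are among the 26, passed the filter only through siFLI1 in at least 1 line. Of the 34 members that passed through both groups in every line, 22 rose and 1 fell throughout. Another 7 members went up in one line and down in another. The share of all genes that did so was not computed, so this count is a description only. In bulk RNA of this kind, more cells of a type and more RNA per cell cannot be told apart. A list of 5 fibroblast markers also rose, with 5 higher in TC-32 and 4 each in TC-71 and A673. Its summed level went from 74.1-77.1 to 279-291 CPM in TC-32, from 34.9-37.1 to 162-174 CPM in TC-71 and from 960-999 to 3461-3902 CPM in A673. LUM had at most 3 counts in each TC-32 siNeg library, so it passed the filter there only through siFLI1 and its direction was set by the filter. COL1A2 had at most 3 counts in each TC-71 siNeg library, and 4 of the 5 markers were tested in TC-71. Of 5 epithelial markers, 3 rose in TC-32 (sum 88.8-103 to 124-141 CPM), 2 in TC-71 (159 to 408-422 CPM) and 2 in A673 (293-316 to 370-418 CPM), and none fell. Of 4 endothelial markers, summed to at most 4.56 CPM in any library, 2 rose and 1 fell in TC-32, 3 rose and 1 fell in A673, and none was tested in TC-71. Of all tested genes, 41.3% rose and 40.1% fell in TC-32, 36.8% and 35.0% in TC-71, and 36.0% and 35.0% in A673. The lists are short, so their counts beside these shares are descriptions only. The part of these markers in the adhesion results was not tested.

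**Figure D1:**
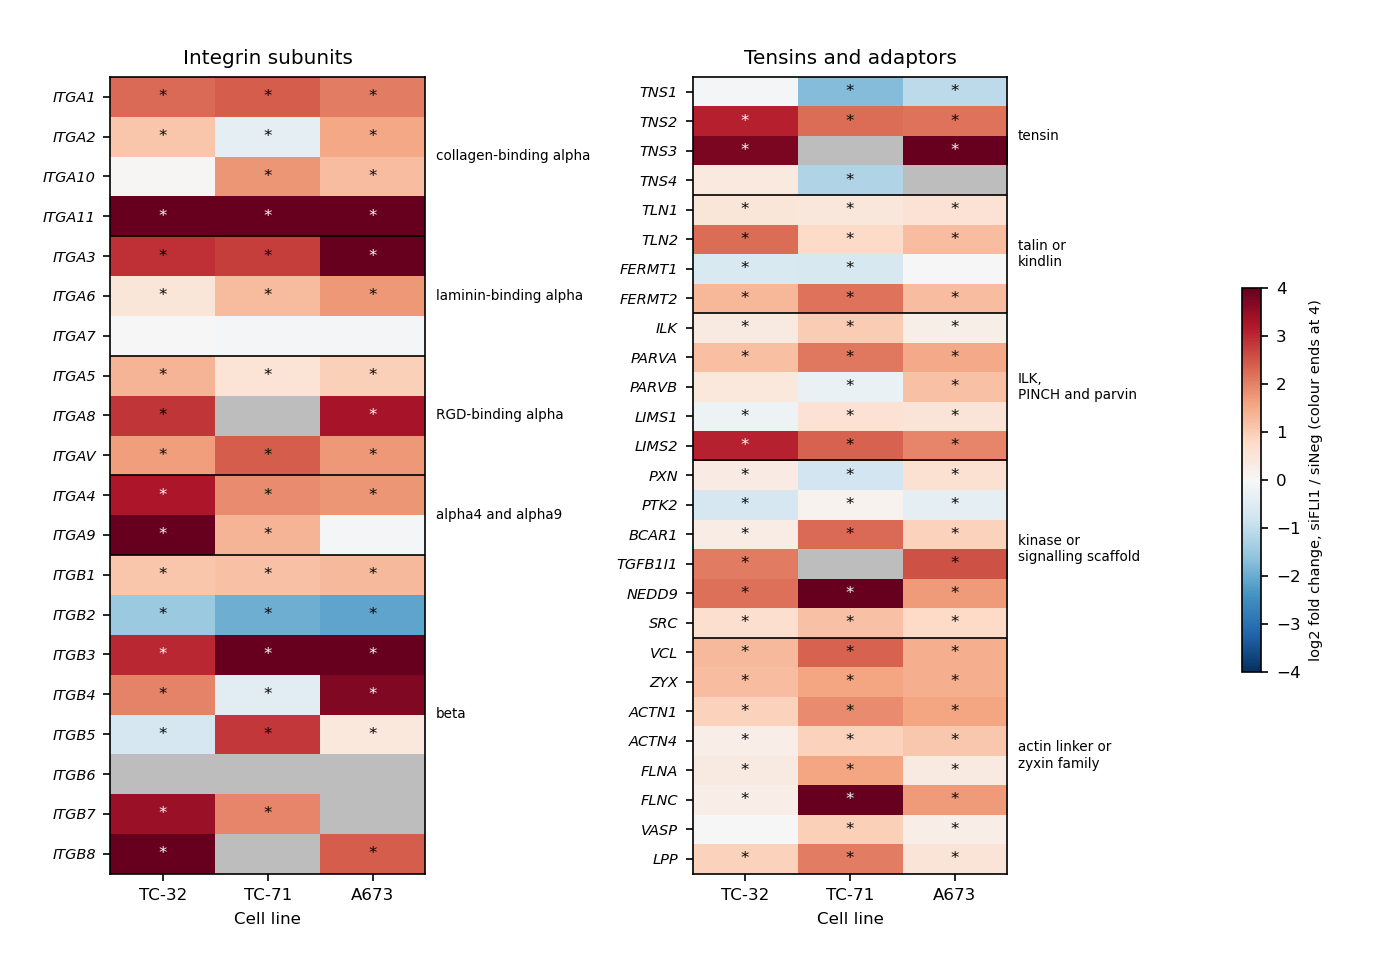
Log2 fold change of siFLI1 against siNeg for the 20 integrin subunits (left) and the 27 tensins and adaptors (right) in each line; colours end at 4, stars mark an edgeR adjusted p under 0.05, and grey cells were not tested. Red cells dominate both panels, and members called higher number 35 for TC-32, 33 for TC-71 and 38 for A673. Stars also mark 16 values that passed the low-count filter through 1 group only, whose direction was set by the filter. Of members that passed through both groups, 29, 28 and 34 were called higher. ITGB2 is the row that is blue with a star in all 3 lines.

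To show the regulatory sequence of members that rose together, the promoter windows of ITGA11, ITGA1, LIMS2 and ITGA4 are given. They come from RefSeq on GRCh38.p14 and run from 250 bases before to 50 bases after a transcript start, which need not be the outer gene bound. Ranked by the smallest log2 fold change over the lines, they are the top 4 among members higher in all 3 lines whose window lies at the start of the reference (MANE Select) transcript, a condition set after the windows were seen. Letters are 5′ to 3′ on the gene's strand, and capitals mark GGAA, the core of ETS binding motifs, on either strand (TTCC is its reverse complement). The windows lie at chr15:68432114-68432413, minus strand, chr5:52787666-52787965, plus strand, chr2:127675481-127675780, minus strand and chr2:181457136-181457435, plus strand.
ITGA11: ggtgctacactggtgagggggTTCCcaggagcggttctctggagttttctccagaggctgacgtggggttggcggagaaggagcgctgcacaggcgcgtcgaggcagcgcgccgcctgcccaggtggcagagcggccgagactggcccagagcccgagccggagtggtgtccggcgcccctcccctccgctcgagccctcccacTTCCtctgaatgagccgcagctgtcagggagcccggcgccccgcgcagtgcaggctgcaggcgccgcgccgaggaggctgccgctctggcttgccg
ITGA1: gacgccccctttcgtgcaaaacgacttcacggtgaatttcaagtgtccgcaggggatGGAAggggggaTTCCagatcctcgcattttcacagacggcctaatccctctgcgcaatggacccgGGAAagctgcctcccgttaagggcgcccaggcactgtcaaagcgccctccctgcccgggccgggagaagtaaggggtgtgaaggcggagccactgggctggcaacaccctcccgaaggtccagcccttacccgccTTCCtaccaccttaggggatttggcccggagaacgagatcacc
LIMS2: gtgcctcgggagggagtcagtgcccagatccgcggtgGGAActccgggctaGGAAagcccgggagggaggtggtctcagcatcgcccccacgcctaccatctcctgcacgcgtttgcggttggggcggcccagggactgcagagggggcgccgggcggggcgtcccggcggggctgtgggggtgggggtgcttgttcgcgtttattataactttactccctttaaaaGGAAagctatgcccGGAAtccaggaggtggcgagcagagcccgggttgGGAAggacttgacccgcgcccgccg
ITGA4: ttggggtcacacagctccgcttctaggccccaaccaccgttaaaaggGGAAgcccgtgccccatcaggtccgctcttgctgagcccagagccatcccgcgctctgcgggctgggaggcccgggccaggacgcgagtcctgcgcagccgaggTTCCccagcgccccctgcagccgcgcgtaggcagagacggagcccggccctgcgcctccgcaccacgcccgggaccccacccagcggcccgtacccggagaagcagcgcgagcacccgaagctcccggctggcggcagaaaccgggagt

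These windows hold 2, 4, 5 and 2 copies of GGAA. Among the 36 members with a RefSeq window, 34 hold GGAA on at least 1 strand, and so do 95.5% of the 35116 windows of all genes. GGAAGGAA, a tandem pair of that core searched on both strands and so also counted as GGAA, was in 1 member window (ITGA10) and in 3.67% of all windows. CATTCC, the core of TEAD motifs, whose reverse complement GGAATG overlaps GGAA, was in 5 member windows and in 14.0% of all. Of the 22 windows of members that rose in all 3 lines, 4 held it (ITGA5, ITGB1, VCL and FLNC). The CArG box, the motif of serum response factor, was in 2 member windows (ITGB6 and FLNA) and in 1.29% of all. A match describes the letters of the window only. ITGA3, ITGA7, ITGA9, ITGB2, ITGB3, ITGB4, TNS4, PARVA, PTK2, FERMT1 and SRC had no window in the table.

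Among the collagen-binding alpha subunits, ITGA11 and ITGA1 rose in every line. ITGA11 encodes the collagen receptor subunit of fibroblast-like cells (ENSG00000137809.16, chromosome 15, 68296532 to 68432163, minus strand, as for all positions from GENCODE 44 on GRCh38). Where pairs of values are given, siNeg comes first and siFLI1 second, each with its 3 libraries. Levels set side by side between lines, here and below, are descriptions. The tables were quantified separately, TC-71 with another counter than TC-32 and A673. ITGA11 measured 1.00, 1.13 and 1.30 CPM in TC-32 siNeg and 58.6, 65.1 and 60.2 CPM in siFLI1. Its TC-71 libraries held 0 counts in all siNeg replicates and 18.005, 18.7 and 20.6 CPM in siFLI1. In A673 the values were 0.0995, 0.197 and 0.185 CPM and 10.5, 11.2 and 10.9 CPM. All siFLI1 libraries thus lay far above all siNeg libraries, with the TC-71 controls below detection. The log2 fold change was 5.74 (SE 0.16, edgeR adjusted p = 3.41e-24) in TC-32 and 6.07 (SE 0.19, edgeR adjusted p = 1.65e-14) in A673. In TC-71 the siFLI1 level was at least 126-fold higher than the largest level that 3 counts make in a siNeg library.

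ITGA1, the alpha subunit of another collagen receptor (ENSG00000213949.8, chromosome 5, 52787916 to 52959209, plus strand), overlaps antisense genes over 8.06% of its exon bases and same-strand genes over 5.77%. ITGA1 stood at 6.07, 6.94 and 6.48 CPM in TC-32 siNeg and at 32.6, 32.5 and 29.7 CPM in siFLI1. TC-71 gave 19.6, 21.9 and 17.1 CPM and 93.5, 102 and 112 CPM, and A673 gave 11.9, 14.1 and 13.6 CPM and 55.9, 52.6 and 54.7 CPM. The siFLI1 libraries were the higher ones in each line without overlap. Its log2 fold changes of 2.28 (SE 0.087, edgeR adjusted p = 4.13e-18), 2.41 (SE 0.077, edgeR adjusted p = 3.52e-18) and 2.04 (SE 0.057, edgeR adjusted p = 3.3e-13) were called in each line. The effect in A673 differed from that in TC-71 by -0.40 (SE 0.10, edgeR adjusted p = 0.00123). ITGA10, the cartilage collagen receptor subunit, rose in TC-71 (from 2.99 ± 0.484 to 10.4 ± 0.390 CPM) and A673 (from 1.20 ± 0.122 to 2.79 ± 0.183 CPM). In TC-32 the ITGA10 groups overlapped, at 1.41 ± 0.422 and 1.45 ± 0.530 CPM. ITGA2 is among the members with opposite directions, below.

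Of the laminin-binding subunits, ITGA3 and ITGA6 rose in all lines and ITGA7 was called in none. ITGA3, subunit of a receptor for laminins of basement membranes (ENSG00000005884.17, chromosome 17, 50055968 to 50090481, plus strand), stood at 17.9, 17.9 and 19.9 CPM in TC-32 siNeg and at 132, 151 and 142 CPM in siFLI1. For TC-71 the libraries gave 5.24, 5.17 and 4.89 CPM and 32.9, 36.5 and 34.6 CPM. A673 siNeg libraries held 1.42, 1.43 and 1.47 CPM and siFLI1 libraries 65.5, 71.6 and 69.8 CPM. The A673 controls were the lowest of all groups, while its siFLI1 libraries lay between those of TC-71 and TC-32. The log2 fold changes were 2.93 (SE 0.064, edgeR adjusted p = 8.14e-23), 2.77 (SE 0.092, edgeR adjusted p = 5.33e-22) and 5.58 (SE 0.068, edgeR adjusted p = 2.03e-17). The A673 effect exceeded that of TC-71 by 2.78 (SE 0.11, edgeR adjusted p = 4.57e-20) on the log2 scale, and TC-32 less A673 gave -2.61 (SE 0.097, edgeR adjusted p = 2.14e-22). Between TC-32 and TC-71 the difference was 0.16 (SE 0.11, edgeR adjusted p = 0.21), which did not pass the threshold.

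ITGA6, which pairs with beta1 or beta4 to bind laminin, rose from 16.1 ± 0.814 to 22.7 ± 1.19 CPM in TC-32, from 8.08 ± 1.25 to 19.2 ± 0.591 CPM in TC-71 and from 17.8 ± 0.619 to 59.3 ± 3.43 CPM in A673. Its log2 fold changes were 0.50, 1.25 and 1.73, smallest in TC-32. ITGA7, the laminin receptor subunit of skeletal muscle, had means of 20.6 and 20.9 CPM in TC-32, 26.5 and 25.02 CPM in TC-71 and 24.8 and 23.5 CPM in A673. Its groups overlapped in each line (edgeR adjusted p = 0.741, 0.305 and 0.277). In A673 it passed the threshold with library size alone (-0.19) and without siFLI1 replicate 2 (-0.15).

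The RGD-binding subunits ITGA5 and ITGAV rose in every line. ITGAV, the partner of beta1, beta3, beta5, beta6 and beta8 in receptors for vitronectin and for latent TGF-beta (ENSG00000138448.11, chromosome 2, 186590010 to 186680901, plus strand), measured 73.6, 71.2 and 67.3 CPM in TC-32 siNeg and 235, 221 and 226 CPM in siFLI1. Its TC-71 values were 72.2, 74.5 and 76.3 CPM and 369, 402 and 421 CPM. Those of A673 were 85.0, 90.4 and 86.9 CPM and 311, 284 and 283 CPM. The siNeg levels of the lines were alike, and siFLI1 exceeded siNeg in every library. ITGAV log2 fold changes were 1.68 (SE 0.047, edgeR adjusted p = 2.02e-20), 2.42 (SE 0.048, edgeR adjusted p = 2.2e-26) and 1.74 (SE 0.042, edgeR adjusted p = 6.84e-14). The effect was larger in TC-71 than in A673, with an A673 less TC-71 difference of -0.72 (SE 0.069, edgeR adjusted p = 8.92e-11), and TC-32 less A673 gave -0.025 (SE 0.070, edgeR adjusted p = 0.797).

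ITGA5, the fibronectin receptor subunit (ENSG00000161638.10, chromosome 12, 54395261 to 54419266, minus strand), rose from 85.8 ± 0.273 to 219 ± 14.1 CPM in TC-32, from 195 ± 6.796 to 289 ± 3.37 CPM in TC-71 and from 292 ± 12.5 to 561 ± 38.0 CPM in A673, with log2 fold changes of 1.35 (SE 0.049, edgeR adjusted p = 3.28e-18), 0.56 (SE 0.042, edgeR adjusted p = 6.56e-13) and 0.94 (SE 0.047, edgeR adjusted p = 2.15e-10). ITGA8, a fibronectin and nephronectin receptor subunit of kidney and smooth muscle, was scarce. It passed the filter only through siFLI1, went from 0.282 ± 0.0262 to 2.06 ± 0.149 CPM in TC-32 and from 0.0944 ± 0.0440 to 0.941 ± 0.0767 CPM in A673 and had 0 counts in every TC-71 library, where each library's limit of 3 counts lay between 0.0806 and 0.152 CPM. ITGA4, which binds VCAM1 and fibronectin (ENSG00000115232.13, chromosome 2, 181457202 to 181538940, plus strand), measured 0.670, 0.942 and 0.968 CPM in TC-32 siNeg and 9.12, 6.98 and 8.32 CPM in siFLI1. TC-71 held far more, with 60.3, 62.6 and 58.4 CPM and 201, 232.2 and 243 CPM. A673 lay between, with 12.7, 13.5 and 14.0 CPM and 47.6, 45.7 and 43.0 CPM. siFLI1 was higher without overlap throughout, at log2 fold changes of 3.23 (SE 0.21, edgeR adjusted p = 1.94e-14), 1.90 (SE 0.058, edgeR adjusted p = 1.01e-19) and 1.76 (SE 0.052, edgeR adjusted p = 5.45e-13). ITGA4 shares 26.4% of its exon bases with CERKL on the opposite strand. ITGA9, which is related to ITGA4 and binds tenascin-C and osteopontin, went from 0.505 ± 0.149 to 15.3 ± 0.753 CPM in TC-32, where it passed the filter only through siFLI1 (log2 fold change 4.93, SE 0.23), and rose from 0.529 ± 0.0574 to 1.37 ± 0.252 CPM in TC-71. In A673 its groups overlapped (1.91 ± 0.195 and 1.82 ± 0.335 CPM), and the TC-32 effect exceeded the A673 effect by 5.04 (SE 0.29).

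Among the beta subunits, ITGB1 and ITGB3 rose and ITGB2 fell in all 3 lines. ITGB1, the common partner of most alpha subunits (ENSG00000150093.18, chromosome 10, 32887273 to 33005792, minus strand), measured 332, 333 and 304 CPM in TC-32 siNeg and 721, 670.2 and 699 CPM in siFLI1. Its TC-71 libraries gave 212, 214 and 206 CPM and 452, 473 and 492 CPM. A673 gave 427, 436 and 433 CPM and 1102, 1003 and 1053 CPM. siFLI1 lay above siNeg in each line, and A673 had the highest level in both groups. The log2 fold changes of ITGB1 were 1.11 (SE 0.042, edgeR adjusted p = 1.16e-17), 1.16 (SE 0.042, edgeR adjusted p = 2.48e-20) and 1.29 (SE 0.036, edgeR adjusted p = 3.61e-13). TC-32 and TC-71 differed by -0.062 (SE 0.061, edgeR adjusted p = 0.425) and A673 and TC-71 by 0.082 (SE 0.060, edgeR adjusted p = 0.276), neither past the threshold, while TC-32 less A673 was -0.14 (SE 0.060, edgeR adjusted p = 0.0377).

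ITGB3, the beta subunit of the vitronectin receptor and of the platelet fibrinogen receptor (ENSG00000259207.7, chromosome 17, 47253827 to 47313743, plus strand), was near the detection limit in all siNeg groups. ITGB3 measured 0.0419, 0.0377 and 0.0842 CPM in TC-32 siNeg, from 1, 1 and 2 counts, and 0.498, 0.475 and 0.440 CPM in siFLI1. In TC-71 it went from 0.408, 0.152 and 0.278 CPM to 27.3, 33.9 and 30.3 CPM. In A673 it went from 0.133, 0.0819 and 0.0757 CPM to 5.03, 4.94 and 4.15 CPM. The siFLI1 libraries of TC-71 stood above those of A673, and those of TC-32 stayed under 1 CPM. The TC-32 ratio was 8.72 (95% exact interval 3.16 to 33.5, counting error only), and the log2 fold changes were 6.69 (SE 0.33) in TC-71 and 5.59 (SE 0.25) in A673. ITGB3 passed the low-count filter only through siFLI1 in all 3 lines, so it could be tested only because it was high there. ITGB3 shares 33.2% of its exon bases with another gene on its own strand, and how such reads were assigned is not stated.

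ITGB2, the beta subunit of the leukocyte integrins (ENSG00000160255.17, chromosome 21, 44885953 to 44931989, minus strand), moved the other way. It measured 606, 587 and 622 CPM in TC-32 siNeg and 201, 238 and 209 CPM in siFLI1. TC-71 gave 460.5, 432 and 465 CPM and 129, 115 and 106 CPM. A673 held far less, 7.72, 7.50 and 6.92 CPM in siNeg and 1.69, 1.84 and 1.62 CPM in siFLI1. siNeg was the higher group in each line, without overlap. The log2 fold changes were -1.49 (SE 0.051, edgeR adjusted p = 5.93e-16), -1.96 (SE 0.054, edgeR adjusted p = 2.46e-20) and -2.10 (SE 0.086, edgeR adjusted p = 1.6e-11). The fall was smaller in TC-32 than in A673 (difference 0.65, SE 0.11, edgeR adjusted p = 4.53e-06) and than in TC-71 (difference 0.47, SE 0.079, edgeR adjusted p = 9.96e-06). ITGB2 shares 4.15% of its exon bases with the antisense gene ITGB2-AS1, and whether counting used strand is not stated, so reads of such pairs may be mixed.

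The alpha partners of beta2 were close to absent. ITGAL had 0 to 6 counts per library over the 18 libraries, ITGAD 0 to 2, ITGAX 0 to 16 and ITGAM 0 to 35. ITGAM, the alpha subunit of the complement receptor Mac-1, was called in TC-32 only. There it went from 1, 0 and 1 counts to 13, 35 and 28 counts. It thus passed the low-count filter in TC-32 only through siFLI1, and its direction was set by the filter. PTPRC, the pan-leukocyte gene CD45, had 0 to 10 counts per library. A list of 5 leukocyte markers with PTPRC among them summed to 3.28-4.29 CPM in TC-32 siNeg and 4.70-6.25 CPM in siFLI1, with 1 of 2 tested genes higher and 1 lower. It summed to 5.53-6.63 and 5.50-6.42 CPM in TC-71, with 1 tested and none called, and to 1.71-1.81 and 2.42-3.00 CPM in A673, where the 1 tested gene rose. CD3E had at most 3 counts in every library. The shares of all genes called, given above for the other marker lists, apply to these counts too. These partner and marker genes were singled out after their values were seen.

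Levels of different subunits were compared per kilobase of their MANE Select transcript. In TC-32 siNeg, ITGB2 made up 63.4% ± 1.35 of the summed level of the 8 beta subunits and ITGB1 25.4% ± 1.43. After siFLI1 the order was turned, with ITGB1 at 64.5% ± 2.62 and ITGB2 at 26.6% ± 2.29. TC-71 went likewise from ITGB2 at 72.0% ± 1.07 and ITGB1 at 25.2% ± 1.09 to ITGB1 at 60.5% ± 1.96 and ITGB2 at 19.9% ± 2.18. In A673, ITGB1 led in both groups, with 69.5% ± 0.683 in siNeg and 80.7% ± 1.31 in siFLI1, and ITGB5 followed with 28.8% ± 0.627 and 18.4% ± 1.27. With the length of all merged exons, an alternative added after the data were seen, the lead still went from ITGB2 to ITGB1 in TC-32 and TC-71, but the ranks below it changed. ITGB5 (19.5%) then stood above ITGB1 (17.0%) in TC-32 siNeg and above ITGB2 in TC-71 siFLI1 (30.3% and 20.6%), and A673 siNeg was led by ITGB5 (51.4%) over ITGB1 (46.7%). These shares are descriptions, and the table of TC-71 was made with another counter than those of TC-32 and A673, per the table names.

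**Figure D2:**
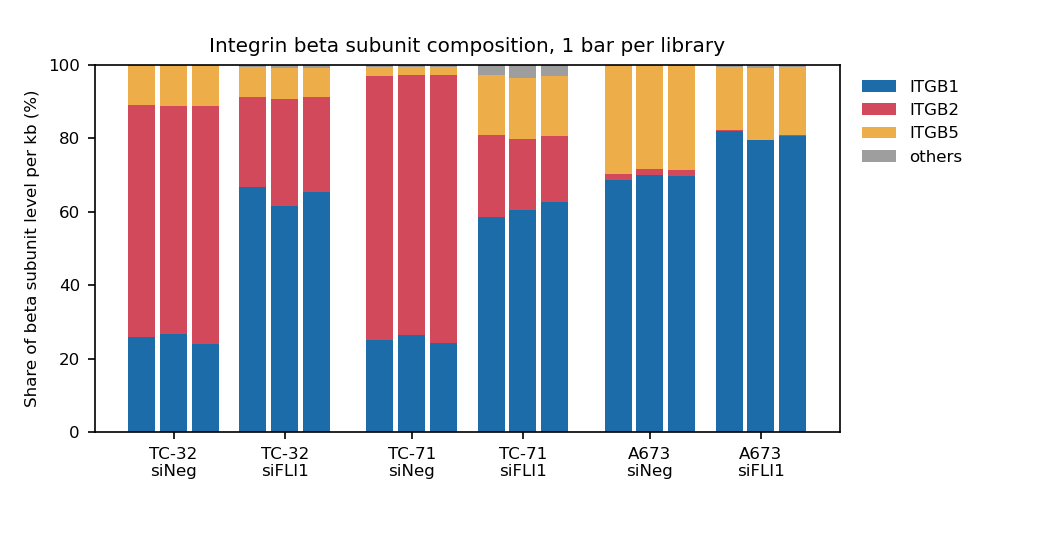
Share of each beta subunit in the summed level per kilobase (MANE Select length) of the 8 beta subunits, as percent, with 1 bar for each of the 18 libraries. ITGB2 (red) leads in every siNeg library of TC-32 and TC-71, ITGB1 (blue) leads in every siFLI1 library, and in A673 ITGB2 holds 1.58% of the siNeg level.

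Among the alpha subunits that are members, ITGA5 was the leading one per kilobase in all 6 groups. Alpha subunits outside the members, ITGAE, ITGA2B and ITGAM among them, were left out of these sums and ranks. ITGA5 made up 46.9% ± 0.452 of the summed level of member alpha subunits in TC-32 siNeg and 38.2% ± 1.10 in siFLI1. Its share was 58.0% ± 1.10 and 35.9% ± 1.84 in TC-71, and 72.9% ± 1.05 and 60.7% ± 2.23 in A673. These shares fell although its own level rose. ITGAV came second in each group, with 24.0% ± 1.54 in TC-32 siFLI1, 29.8% ± 0.790 in TC-71 siFLI1 and 19.2% ± 1.65 in A673 siFLI1. With merged exon lengths ITGA5 still led in each group, but ITGA3 was second in TC-32 siFLI1 and ITGA4 in both TC-71 groups.

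The remaining beta subunits were low or went in different directions. ITGB7, which pairs with alpha4 or alphaE in lymphocytes, passed the filter only through siFLI1 and went from 0.184 ± 0.110 to 2.11 ± 0.368 CPM in TC-32 and from 0.368 ± 0.0427 to 1.42 ± 0.289 CPM in TC-71, and it shares 42.3% of its exon bases with ZNF740 on the opposite strand. In A673 ITGB7 was not tested, at 0.0580 ± 0.0161 and 0.120 ± 0.0809 CPM. ITGB8, a receptor subunit that binds latent TGF-beta, rose from 1.33 ± 0.0401 to 7.18 ± 0.505 CPM in A673. In TC-32, where it passed the filter only through siFLI1, ITGB8 went from 1, 2 and 3 counts to a total of 207, a ratio of 28.7 (95% exact interval 12.9 to 79.0, counting error only). In TC-71 it had 1 count in the siNeg libraries together and 31 in siFLI1 and was not tested. ITGB6, an epithelial subunit, was tested in no line, with 1 and 2 counts in TC-32, 0 and 2 in TC-71 and 1 and 28 in A673 over the siNeg and siFLI1 libraries. ITGB4 and ITGB5 are among the members with opposite directions.

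**Figure D3:**
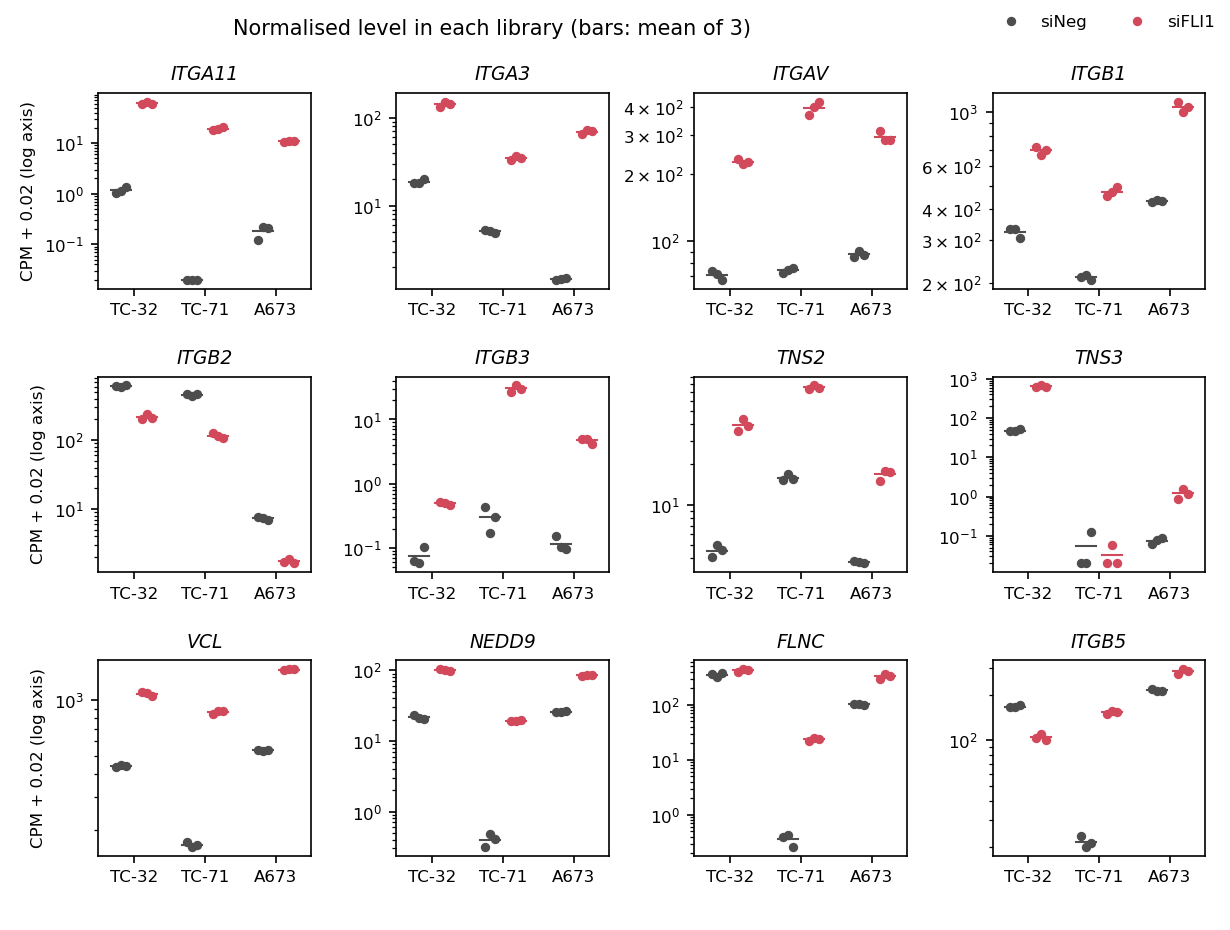
TMM-scaled CPM in each library, with 0.02 CPM added and a log axis, for 12 members in the 3 lines; grey points are siNeg, red points siFLI1, and short lines are means of 3. For ITGA11, ITGA3, ITGAV, ITGB1, ITGB3, TNS2, VCL and NEDD9 the red points lie above the grey ones in every line, for ITGB2 below them, and TNS3 in TC-71 has 0 to 3 counts per library.

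The tensins, which bind integrin beta tails and actin, did not move as a family. TNS2 (ENSG00000111077.17, chromosome 12, 53046969 to 53064379, plus strand) rose in all lines. TNS2 stood at 4.02, 5.01 and 4.55 CPM in TC-32 siNeg and at 35.3, 43.7 and 38.8 CPM in siFLI1. TC-71 libraries gave 15.4, 16.9 and 15.5 CPM and 73.6, 77.9 and 74.0 CPM. A673 libraries gave 3.81, 3.71 and 3.64 CPM and 15.1, 17.9 and 17.4 CPM. The groups did not overlap in any line, and log2 fold changes were 3.11 (SE 0.11, edgeR adjusted p = 1.1e-18), 2.24 (SE 0.064, edgeR adjusted p = 3.56e-23) and 2.18 (SE 0.073, edgeR adjusted p = 1.98e-12). The TC-32 effect exceeded that of A673 by 0.97 (SE 0.13, edgeR adjusted p = 2.5e-08) and that of TC-71 by 0.86 (SE 0.13, edgeR adjusted p = 3.83e-07).

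TNS1 did not follow TNS2. Its TC-32 libraries overlapped, with 91.9, 87.5 and 94.5 CPM in siNeg and 90.2, 89.7 and 88.0 CPM in siFLI1. In TC-71 it fell from 128, 129 and 143 to 43.5, 38.7 and 37.3 CPM and in A673 from 138, 133 and 134 to 59.5, 68.9 and 65.7 CPM. Effects in TC-32 and TC-71 differed by 1.71 (SE 0.080, edgeR adjusted p = 5.24e-19), and those in TC-32 and A673 by 1.06 (SE 0.075, edgeR adjusted p = 1.96e-14). TNS3, a tensin of focal and fibrillar adhesions, was abundant in TC-32 only. It went from 45.6, 46.6 and 51.2 to 634, 679.6 and 626 CPM there, from 0.0415, 0.0573 and 0.0673 to 0.829, 1.56 and 1.15 CPM in A673, and had 0, 0 and 3 counts in TC-71 siNeg and 0, 1 and 0 in siFLI1. In A673 it passed the filter only through siFLI1. Per kilobase, TNS3 ranked 6 among the 47 members in TC-32 siFLI1. TNS4, the tensin without an actin-binding region, was under 1 CPM in every library. It passed the filter only through siNeg in TC-71 (log2 fold change -1.21, SE 0.40) and did not pass the threshold there without siNeg replicate 1 (-0.97). TNS4 overlapped between the TC-32 groups and was not tested in A673, with 1 count over the siNeg libraries and 32 over the siFLI1 libraries.

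Talins and kindlins, which activate integrins, rose except for FERMT1. TLN1, the main talin, rose from 380.3 ± 15.5 to 531 ± 8.10 CPM in TC-32, from 335 ± 13.7 to 454 ± 7.30 CPM in TC-71 and from 439 ± 14.7 to 659.9 ± 56.01 CPM in A673. Its effects did not differ beyond the threshold between any lines, with TC-32 less A673 at -0.070 (SE 0.065, edgeR adjusted p = 0.361), TC-32 less TC-71 at 0.039 (SE 0.066, edgeR adjusted p = 0.662) and A673 less TC-71 at 0.11 (SE 0.065, edgeR adjusted p = 0.163). TLN2, the talin of muscle and brain, measured 34.1, 34.2 and 36.5 CPM in TC-32 siNeg and 169.9, 172 and 154 CPM in siFLI1. It rose from 21.2 ± 0.128 to 36.0 ± 1.85 CPM in TC-71 and from 25.6 ± 0.546 to 59.9 ± 4.05 CPM in A673. The TLN2 effect in TC-32 exceeded that in A673 by 1.05 (SE 0.076, edgeR adjusted p = 2.65e-14) and that in TC-71 by 1.48 (SE 0.085, edgeR adjusted p = 1.47e-16).

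FERMT2, the kindlin of mesenchymal cells, measured 25.2, 24.0 and 23.0 CPM in TC-32 siNeg and 65.1, 59.1 and 58.7 CPM in siFLI1. TC-71 libraries held 34.5, 35.2 and 32.8 CPM and 144, 157 and 158 CPM, and A673 libraries 73.7, 76.1 and 76.8 CPM and 185, 168 and 176 CPM. Each siFLI1 library was above each siNeg library of its line, with log2 fold changes of 1.34 (SE 0.063, edgeR adjusted p = 6.73e-16), 2.17 (SE 0.054, edgeR adjusted p = 2.16e-24) and 1.22 (SE 0.041, edgeR adjusted p = 2.03e-12). FERMT1, the kindlin of epithelia, fell from 15.6 ± 0.552 to 10.3 ± 1.18 CPM in TC-32 and from 59.1 ± 1.92 to 37.8 ± 1.43 CPM in TC-71. In A673 the FERMT1 groups overlapped at 2.74 ± 0.0359 and 2.78 ± 0.122 CPM.

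ILK, PINCH and parvin proteins form a complex that binds beta tails and actin. PARVA, alpha-parvin, measured 53.3, 54.998 and 53.9 CPM in TC-32 siNeg and 127, 126 and 122 CPM in siFLI1. It went from 21.6, 20.8 and 17.7 to 86.3, 88.3 and 86.0 CPM in TC-71 and from 58.5, 55.8 and 53.3 to 162, 161 and 155 CPM in A673. No groups overlapped, and the log2 fold changes were 1.20 (SE 0.048, edgeR adjusted p = 2.78e-17), 2.12 (SE 0.065, edgeR adjusted p = 2.81e-22) and 1.51 (SE 0.041, edgeR adjusted p = 2e-13). LIMS2, the PINCH2 adaptor (ENSG00000072163.19, chromosome 2, 127638381 to 127681786, minus strand), stood at 7.66, 5.81 and 7.79 CPM in TC-32 siNeg and at 54.7, 64.0 and 61.5 CPM in siFLI1. Its values were 3.38, 2.43 and 2.53 and 15.1, 15.7 and 12.9 CPM in TC-71 and 4.95, 4.43 and 4.64 and 16.0, 19.9 and 18.3 CPM in A673. siFLI1 was again higher without overlap, with log2 fold changes of 3.09 (SE 0.097, edgeR adjusted p = 1.03e-18), 2.37 (SE 0.14, edgeR adjusted p = 2.4e-16) and 1.95 (SE 0.080, edgeR adjusted p = 2.08e-11). ILK itself rose from 95.3 ± 3.73 to 122 ± 4.001 CPM in TC-32, from 73.8 ± 0.742 to 149 ± 0.756 CPM in TC-71 and from 143 ± 3.05 to 169.9 ± 6.98 CPM in A673. Since 78.5% of its exon bases are shared with antisense genes, TAF10 among them, the ILK values are uncertain, and its A673 log2 fold change of 0.24 became 0.13 with library size alone.

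Of the scaffolds and kinases, NEDD9, BCAR1 and SRC rose in every line, while PXN and PTK2 went in opposite directions. NEDD9, a docking protein for FAK and SRC in migrating cells (ENSG00000111859.16, chromosome 6, 11183298 to 11382348, minus strand), measured 23.6, 21.4 and 20.8 CPM in TC-32 siNeg and 105, 101 and 98.6 CPM in siFLI1. Its TC-71 siNeg libraries were low, at 0.297, 0.456 and 0.382 CPM, and the siFLI1 libraries reached 19.2, 19.5 and 19.7 CPM. In A673 the values were 25.7, 25.3 and 26.4 CPM and 83.0, 85.0 and 86.9 CPM. TC-71 was the lowest line in both groups, and siFLI1 lay above siNeg without overlap. In TC-71 NEDD9 passed the filter only through siFLI1. The log2 fold changes were 2.21 (SE 0.060, edgeR adjusted p = 8.5e-21) in TC-32, 5.69 (SE 0.26) in TC-71 and 1.72 (SE 0.039, edgeR adjusted p = 3.45e-14) in A673, and the A673 less TC-71 difference, which rests on that TC-71 value, was -4.02 (SE 0.24). BCAR1, the related scaffold p130Cas, rose from 16.8 ± 0.8802 to 81.8 ± 6.24 CPM in TC-71 and from 53.1 ± 2.09 to 101 ± 8.52 CPM in A673. Its TC-32 groups overlapped although the gene passed the threshold (59.9 ± 4.64 and 73.1 ± 9.50 CPM, log2 fold change 0.29, SE 0.088, edgeR adjusted p = 0.00907). SRC, the kinase that acts with FAK, rose in all lines, with log2 fold changes of 0.66, 1.17 and 0.80. TGFB1I1, the paxillin relative Hic-5, rose from 4.78 ± 0.501 to 20.0 ± 0.534 CPM in TC-32 and from 6.41 ± 0.329 to 37.5 ± 4.22 CPM in A673 and had at most 7 counts in a TC-71 library.

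All 8 actin linkers and zyxin family members rose in TC-71 and A673, and 7 rose in TC-32, where VASP overlapped between groups. VCL, vinculin, the tension-bearing link from talin to actin (ENSG00000035403.17, chromosome 10, 73995193 to 74121363, plus strand), measured 435, 449 and 444 CPM in TC-32 siNeg and 1101, 1091 and 1049 CPM in siFLI1. TC-71 gave 171, 162 and 167 CPM and 838, 875 and 871 CPM. A673 gave 536, 533 and 539 CPM and 1451, 1464 and 1473 CPM. TC-71 controls were the lowest, and siFLI1 libraries were higher everywhere. VCL log2 fold changes were 1.29 (SE 0.037, edgeR adjusted p = 3.64e-20), 2.37 (SE 0.041, edgeR adjusted p = 7.31e-28) and 1.45 (SE 0.029, edgeR adjusted p = 8.98e-15), larger in TC-71 than in A673 (A673 less TC-71, -0.96, SE 0.050, edgeR adjusted p = 1.12e-17). ZYX, zyxin, which gathers at stretched actin fibres, rose from 172 ± 7.42 to 400.4 ± 26.2 CPM in TC-32, from 118 ± 1.75 to 355 ± 15.3 CPM in TC-71 and from 132 ± 3.70 to 362 ± 38.2 CPM in A673. Its log2 fold changes were 1.22 (SE 0.048, edgeR adjusted p = 6.35e-17), 1.59 (SE 0.044, edgeR adjusted p = 3.57e-23) and 1.46 (SE 0.059, edgeR adjusted p = 2.09e-11). Antisense genes overlap 11.1% of the exon bases of VCL and 14.2% of those of ACTN4.

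FLNC, the filamin of muscle, stood at 361, 324 and 376 CPM in TC-32 siNeg and at 397, 448 and 425 CPM in siFLI1. TC-71 held 0.371, 0.406 and 0.243 CPM and 22.2, 25.2 and 23.6 CPM. A673 held 105, 104 and 99.0 CPM and 299, 362 and 336 CPM. The gene was barely read in TC-71 controls and already high in those of TC-32. In TC-71 it passed the filter only through siFLI1. Log2 fold changes were 0.26 (SE 0.053, edgeR adjusted p = 0.000218) in TC-32, 6.14 (SE 0.29) in TC-71 and 1.69 (SE 0.056, edgeR adjusted p = 2.1e-12) in A673, and the A673 less TC-71 difference, which rests on that TC-71 value, was -4.49 (SE 0.36). FLNA, the ubiquitous filamin, was the leading member per kilobase in all groups but TC-71 siNeg, where ITGB2 led. It rose from 4176 ± 244.7 to 5342 ± 371 CPM in TC-32, from 859 ± 39.2 to 2548 ± 94.9 CPM in TC-71 and from 2167 ± 47.3 to 2769 ± 296 CPM in A673. ACTN1 and ACTN4, alpha-actinins that crosslink actin, rose throughout, by log2 fold changes of 0.91, 1.90 and 1.58 for ACTN1 and 0.27, 0.93 and 1.09 for ACTN4. LPP, a zyxin relative, rose by 0.93, 2.04 and 0.52 on the same scale. VASP, an actin polymerase cofactor, rose by 0.96 in TC-71 and 0.26 in A673, the latter 0.15 with library size alone.

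Medians of integrin subunits and adaptors are set side by side as a description, since members that passed the filter through siFLI1 alone could only rise. In TC-32 the median log2 fold change was 2.00 over 19 tested integrin subunits, of which 15 rose and 2 fell, and 0.48 over 27 adaptors, of which 20 rose and 3 fell. In TC-71 it was 1.78 over 17 integrin subunits (13 higher, 3 lower) and 1.17 over 25 adaptors (20 higher, 5 lower). In A673 it was 1.74 over 18 integrin subunits (15 higher, 1 lower) and 1.14 over 26 adaptors (23 higher, 2 lower). Called changes of at least 2-fold were seen in 25 members in TC-32 (15 integrin subunits, 10 adaptors), where 37.6% of all tested genes reached this. TC-71 had 29 such members (13 and 16) beside 23.4% of all genes, and A673 had 29 (14 and 15) beside 23.1%. The difference between integrin subunits and adaptors was not tested. The filter was passed through siFLI1 alone by 6 integrin subunits and 0 adaptors in TC-32, by 3 and 2 in TC-71, and by 3 and 1 in A673. Over members that passed through both groups, the medians were 1.35 for 13 integrin subunits and 0.48 for 27 adaptors in TC-32, 1.31 for 14 and 1.09 for 22 in TC-71, and 1.73 for 15 and 1.09 for 25 in A673.

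**Figure D4:**
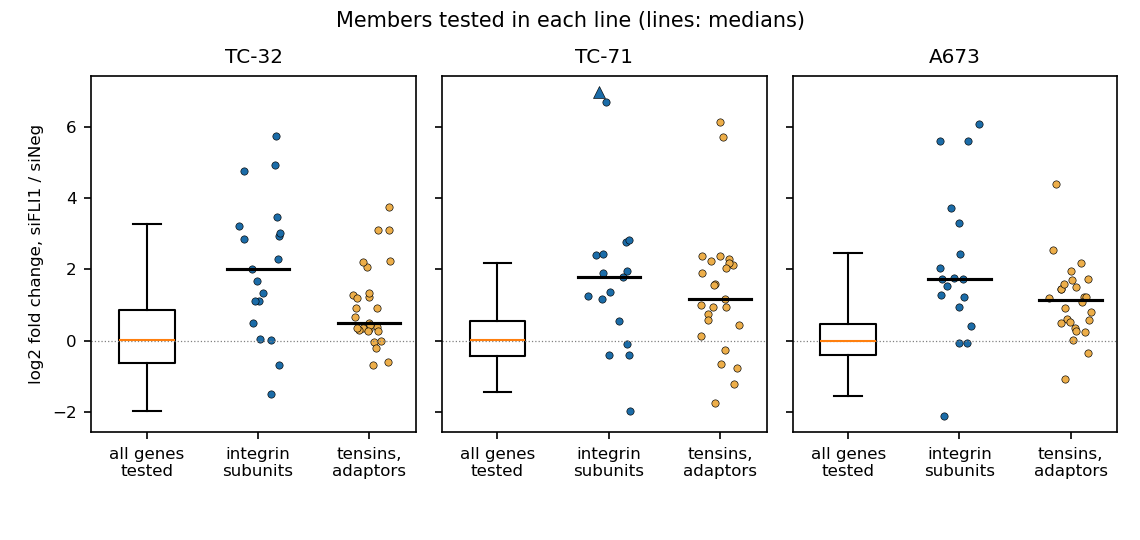
Log2 fold change of siFLI1 against siNeg for tested integrin subunits (blue) and tensins and adaptors (yellow) in each line, with medians as black lines; the box shows all tested genes with quartiles and whiskers at the 5th and 95th percentiles, and the triangle is the lower bound of ITGA11 in TC-71. The integrin medians of 2.00, 1.78 and 1.74 lie above the adaptor medians of 0.48, 1.17 and 1.14, and the medians of all genes lie near 0; without members that passed the filter through 1 group, the integrin medians are 1.35, 1.31 and 1.73.

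The siFLI1 effect differed between lines for most members. Interaction contrasts in one edgeR model differed from 0 for 35 of 46 members between TC-32 and A673 (13 of 19 integrin subunits, 22 of 27 adaptors), where 62.1% of all genes did. The count was 37 of 46 between TC-32 and TC-71 (13 and 24), beside 53.6% of all genes, and 33 of 46 between A673 and TC-71 (12 and 21), beside 51.7%. These pairs of lines share libraries, so the counts are not independent. Members not tested in one of the lines alone are included, and 33, 36 and 31 of those that differed were tested in both lines. Members that passed the low-count filter in a line only through siFLI1, such as ITGA9, NEDD9 and FLNC, were not set apart in these counts.

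Called changes in opposite directions were found for ITGB5, ITGB4, ITGA2, PXN, PARVB, LIMS1 and PTK2. How common such opposite calls are over all genes was not computed. ITGB5, the beta subunit of another vitronectin receptor (ENSG00000082781.11, chromosome 3, 124761948 to 124901418, minus strand), measured 166, 165 and 169.7 CPM in TC-32 siNeg and 104, 109.9 and 99.8 CPM in siFLI1. TC-71 went the other way, from 23.5, 20.0 and 21.2 CPM to 149, 156 and 154 CPM. A673 rose from 218, 210.1 and 210.0 to 272, 294 and 286 CPM. Its TC-71 controls were the lowest group, and the siRNAs did not overlap in any line. The log2 fold changes were -0.67 (SE 0.046, edgeR adjusted p = 1.64e-12), 2.82 (SE 0.058, edgeR adjusted p = 1.97e-26) and 0.42 (SE 0.037, edgeR adjusted p = 1.16e-07). TC-32 less TC-71 was -3.49 (SE 0.071, edgeR adjusted p = 4.13e-29) and TC-32 less A673 -1.06 (SE 0.063, edgeR adjusted p = 1.66e-16).

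ITGB4, the hemidesmosome subunit that pairs with alpha6, rose from 1.59, 1.66 and 1.18 to 4.71, 6.30 and 6.70 CPM in TC-32 and from 0.365, 0.377 and 0.404 to 4.40, 5.87 and 4.76 CPM in A673. In TC-71 it was 7.43, 6.34 and 6.11 CPM in siNeg and 5.65, 5.85 and 3.80 CPM in siFLI1. The TC-71 groups did not overlap but were close. The log2 fold changes were 2.00 (SE 0.19, edgeR adjusted p = 2.6e-10), -0.41 (SE 0.14, edgeR adjusted p = 0.0125) and 3.71 (SE 0.16, edgeR adjusted p = 8.31e-12). The fall in TC-71 did not pass the threshold when counts were thinned (-0.31), without siNeg replicate 1 (-0.32) or without siFLI1 replicate 3 (-0.20). The effect exceeded that in TC-71 by 2.40 (SE 0.26, edgeR adjusted p = 4.19e-10) in TC-32 and by 4.07 (SE 0.24, edgeR adjusted p = 1.36e-16) in A673.

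ITGA2, the platelet and epithelial collagen receptor subunit, was low in TC-32 (0.335, 0.339 and 0.168 CPM in siNeg, 0.843, 0.475 and 0.575 CPM in siFLI1) and in A673 (0.0332, 0.123 and 0.109 and 0.214, 0.207 and 0.3601 CPM). TC-71 held more, with 18.8, 17.8 and 20.7 CPM in siNeg and 14.6, 12.7 and 15.9 CPM in siFLI1. siFLI1 was above siNeg in TC-32 and A673 and below it in TC-71, without overlap. ITGA2 log2 fold changes were 1.12 (SE 0.43) in TC-32, -0.40 (SE 0.087, edgeR adjusted p = 0.000152) in TC-71 and 1.54 (SE 0.43) in A673. In TC-32 and A673 it passed the filter only through siFLI1, so the direction of its changes there was set by the filter. Its place among these 7 rests on those changes. The TC-32 rise did not pass the threshold with DESeq2 (1.16), without siNeg replicate 3 (0.86) or without siFLI1 replicate 1 (0.87). Differences from TC-71 were 1.52 (SE 0.45) for TC-32 and 1.90 (SE 0.38) for A673.

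PXN, paxillin, the scaffold that FAK and vinculin bind, rose from 209, 198 and 222 to 258, 276 and 260.0 CPM in TC-32 and from 198, 184 and 183 to 271, 301 and 290.1 CPM in A673. In TC-71 it fell from 287, 284 and 290.5 to 171, 176 and 164 CPM. No groups overlapped, and TC-71 had the highest siNeg libraries. Log2 fold changes of PXN were 0.34 (SE 0.046, edgeR adjusted p = 3.51e-07), -0.75 (SE 0.042, edgeR adjusted p = 8.28e-16) and 0.61 (SE 0.044, edgeR adjusted p = 1.45e-08), with differences of 1.08 (SE 0.065, edgeR adjusted p = 3.89e-16) for TC-32 less TC-71 and 1.32 (SE 0.063, edgeR adjusted p = 1.29e-18) for A673 less TC-71. PXN overlaps antisense genes, PXN-AS1 among them, over 27.2% of its exon bases. PARVB, beta-parvin, rose from 13.7, 13.8 and 13.2 to 29.1, 32.3 and 31.4 CPM in A673. It fell from 55.5, 58.5 and 56.2 to 48.7, 47.96 and 45.4 CPM in TC-71 and was near 1 CPM in TC-32, where it did not pass the threshold. The TC-71 and A673 groups did not overlap. The A673 less TC-71 difference of PARVB was 1.41 (SE 0.078, edgeR adjusted p = 5.21e-17).

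LIMS1, the PINCH1 adaptor, fell slightly in TC-32, from 45.4, 40.5 and 43.1 to 37.8, 36.5 and 37.4 CPM. It rose from 54.7, 57.1 and 50.8 to 75.9, 84.8 and 82.4 CPM in TC-71 and from 74.4, 78.3 and 76.2 to 113, 105 and 107 CPM in A673. Although no groups overlapped, the TC-32 change was small, with log2 fold changes of -0.21 (SE 0.060, edgeR adjusted p = 0.00293), 0.58 (SE 0.056, edgeR adjusted p = 1.61e-10) and 0.50 (SE 0.040, edgeR adjusted p = 4.28e-08). Its TC-32 effect differed by -0.80 (SE 0.079, edgeR adjusted p = 1.13e-10) from TC-71 and by -0.68 (SE 0.075, edgeR adjusted p = 9.93e-10) from A673. PTK2, which encodes focal adhesion kinase (FAK), fell from 231.6, 224 and 208 to 139, 139.7 and 135 CPM in TC-32 and from 215, 221 and 218 to 178, 169 and 168 CPM in A673. In TC-71 it rose from 92.2, 89.5 and 90.8 to 101, 99.7 and 98.9 CPM. TC-71 had the lowest control level, and no groups overlapped. PTK2 log2 fold changes were -0.68 (SE 0.046, edgeR adjusted p = 9.11e-13), 0.14 (SE 0.046, edgeR adjusted p = 0.00938) and -0.35 (SE 0.035, edgeR adjusted p = 5.22e-07). The TC-71 rise did not pass the threshold without siNeg replicate 2 (0.11). TC-32 less TC-71 was -0.82 (SE 0.060, edgeR adjusted p = 6.73e-14) and A673 less TC-71 -0.52 (SE 0.058, edgeR adjusted p = 2.32e-09).

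**Figure D5:**
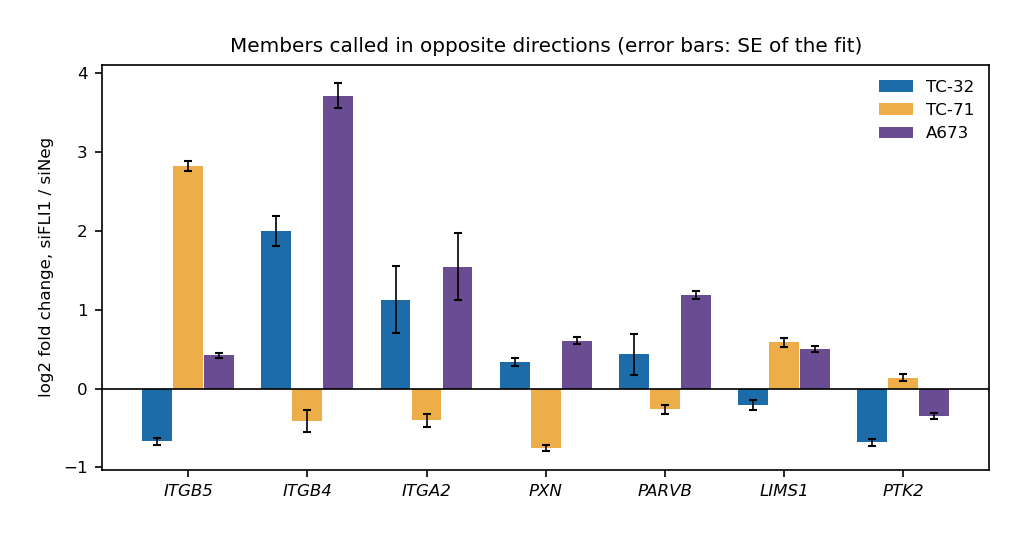
Log2 fold change of siFLI1 against siNeg in each line for the 7 members called in opposite directions in at least 1 pair of lines; bars start at 0 and error bars are the SE of the fit. ITGB5 reaches 2.82 in TC-71 and -0.67 in TC-32, and ITGB4 reaches 3.71 in A673 and -0.41 in TC-71.

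A list of 57 other adhesion genes, such as further alpha subunits, LIM domain proteins and tetraspanins, moved mostly upward as well. Of those tested, 34 of 52 rose and 12 fell in TC-32 (41.3% and 40.1% of all genes), 36 of 49 rose and 8 fell in TC-71 (36.8% and 35.0%), and 34 of 52 rose and 11 fell in A673 (36.0% and 35.0%). Of the 49 tested in all 3 lines, 25 rose and 3 fell throughout, beside 19.0% and 18.8% of all genes. Genes of this list that passed the low-count filter through 1 group only were not set apart in these counts. SYNPO2, the actin-bundling protein synaptopodin-2, went from 0.0813 ± 0.0843 to 2.51 ± 0.451 CPM in TC-32. Its siNeg level there lay below the low-count filter, so it passed only through siFLI1 and its direction was set by the filter. It rose from 0.755 ± 0.367 to 6.78 ± 0.582 CPM in TC-71 and from 1.24 ± 0.0926 to 31.7 ± 0.950 CPM in A673. CD82, a tetraspanin that binds integrins, had log2 fold changes of 3.00, 2.93 and 2.62. FHL1, a LIM protein of muscle, had 3.55, 1.90 and 1.84, and PPFIBP1, liprin-beta-1, 1.65, 1.66 and 1.83. The 3 that fell throughout were ACTN2, the alpha-actinin of striated muscle (-2.28, -1.32 and -2.77), GIT1, a paxillin-binding scaffold (-0.55, -0.31 and -0.40), and CRKL, an adaptor for p130Cas (-0.73, -0.22 and -0.12). ACTN2 thus went the other way from its relatives ACTN1 and ACTN4.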

How the data were processed

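RNA-seq gene tables of 18 libraries (3 lines, siNeg and siFLI1, n = 3) were used. The authors deposited expected counts per gene for TC-32 and A673, which the table names credit to RSEM and which are not scaled to depth. For TC-71 the authors deposited whole-number read counts per gene that the table name credits to Subread, not scaled to depth. Per the submitters' processing notes, cutadapt 4.4, STAR 2.7.3, featureCounts, Subread 2.0.3, limma 3.38.3 and GRCh38 were used, with no role stated. The kit is stranded, but whether counting used strand is not given in the sources used here. Column names of TC-32 and TC-71 do not carry the line, which was read from the table names.

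The tables hold 58381 rows each, and 45 pseudoautosomal Y rows were merged with their X copies, leaving 58336 gene identifiers. Expected counts were rounded. Each line was fitted on its 6 libraries in edgeR 4.0.16 (R 4.3.3) with filterByExpr, TMM scaling and the robust quasi-likelihood test, and a gene was called at a Benjamini-Hochberg adjusted p under 0.05 over all genes tested. Between-line differences are interaction terms of one model over all 18 libraries. Fitted fold changes carry a prior count of 0.125. Limits at a count of 0 use 3 counts, and these and the 95% intervals leave out all but counting error, as PCR reads without molecular identifiers are not independent molecules. Library totals ran from 19685354 to 120993595 counts. The scripts were tested on simulated data. Alternatives were other scalings, other low-count filters, DESeq2 1.42.0, limma-voom (limma 3.58.1), a replicate block, thinning to 19685354 counts, unrounded counts, a 2-fold threshold, only the 12 libraries of 2 lines, and leaving out each library.

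The members, the lists (other adhesion genes and Ewing sarcoma, leukocyte, epithelial, endothelial and fibroblast markers) and the tests were chosen with earlier results of these data known. Members called the same way in all 3 lines or in opposite ways were to be given in full, those with the largest smallest change first. Of the other adhesion genes, at most 4 called higher and 4 called lower in all 3 lines were to be named. ES-5838 cells and siERG, named in the series text, were not analysed here.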

Additional observations from a re-analysis of the deposited data

Results flagged for a closer look

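The siFLI1 effect of many members differed between lines, tested as the interaction of siRNA and line in edgeR. Where lines also differ in FLI1 lowering, medium, depth or counter, these cannot be told apart from the line. TC-32 and TC-71 shared a medium, and TC-32 and A673 shared a counter, per the table names. The count of members whose effect differed was 35 of 46 for TC-32 against A673, beside 62.1% of all genes. It was 37 of 46 for TC-32 against TC-71, beside 53.6%, and 33 of 46 for A673 against TC-71, beside 51.7%. Members that passed the low-count filter in a line only through siFLI1 were not set apart in these counts.

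For 7 members the called changes had opposite signs, and the difference of the log2 fold changes passed the threshold. The share of all genes with such opposite calls was not computed. ITGB5 differed by -1.06 between TC-32 and A673 and by -3.49 between TC-32 and TC-71. ITGB4 differed by 2.40 between TC-32 and TC-71 and by 4.07 between A673 and TC-71. ITGA2 gave 1.52 and 1.90, and PXN gave 1.08 and 1.32, for the same pairs of lines, and the ITGA2 rises in TC-32 and A673 were of values that passed the low-count filter only through siFLI1. PARVB gave 1.41 between A673 and TC-71. LIMS1 differed by -0.68 between TC-32 and A673 and by -0.80 between TC-32 and TC-71. PTK2 differed by -0.82 between TC-32 and TC-71 and by -0.52 between A673 and TC-71.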

How the results depend on the processing

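Of 1934 log2 fold changes of members under the alternatives, 1912 kept their direction and their side of the threshold, 8 fell short of it, 2 passed it newly and 12 changed sign. Requiring at least 2-fold left 25 called members in TC-32, of which 1 was lower, and 3 lower in TC-71. The adaptor median in TC-32 was 0.60 after thinning and 0.46 to 0.57 when each library was left out, the highest without siNeg replicate 2. With library size alone, the A673 medians were 1.63 for integrin subunits and 1.03 for adaptors, while the median of all genes moved from -0.00056 to -0.11.

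Signs turned only for values that were not called. In TC-32 these were ITGA7 without siNeg replicate 2 (-0.025) or siFLI1 replicate 2 (-0.043), and ITGA10 after thinning (-0.20) or without siNeg replicate 1 (-0.18) or siFLI1 replicate 3 (-0.20). TNS1 in TC-32 turned with library size alone (0.012), as did VASP (0.028), which also turned without siFLI1 replicate 3 (0.0024). In A673 they were ITGA9 without siNeg replicate 3 (0.0075) or siFLI1 replicate 3 (0.073), and FERMT1 with library size alone (-0.087) or without siFLI1 replicate 3 (-0.012). Over all single libraries left out, ITGA7 in TC-32 reached 0.095 at most, ITGA10 in TC-32 0.28 and FERMT1 in A673 0.048, and the lowest values were -0.056 for VASP in TC-32 and -0.16 for ITGA9 in A673. The cause was not tested.

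With the replicate number as a block, 40 members were called in TC-32 (35 higher; 80.4% of all genes called), 41 in TC-71 (33 higher; 70.5%) and 41 in A673 (38 higher; 67.4%). Medians with the block were 1.99 and 0.48, 1.79 and 1.17, and 1.74 and 1.13 for integrin subunits and adaptors, FLI1 was at -1.03, -1.47 and -2.08, and 33, 37 and 33 members differed between lines. Correlations of same-numbered deviations lay between -0.334 and 0.054, and 1, 1 and 0 of 6 libraries were closest to their own number, so the numbers were not taken as pairs. The block changed no call of a member within a line.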
